A study of Arabidopsis thaliana with 9 samples.

Results

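The calmodulin-like (CML) genes of Arabidopsis thaliana are described here in a cell suspension culture moved from its growth light to high light or to darkness. The members were every probe set whose platform annotation lists exactly 1 gene with a symbol made of CML and a number, a rule that uses no measured value. It found 7 genes among the 22746 probe sets tested: CML23 (AT1G66400), CML30 (AT2G15680), CML37 (AT5G42380), CML38 (AT1G76650), CML41 (AT3G50770), CML42 (AT4G20780) and CML43 (AT5G44460). Each has 1 probe set and none was lost to a filter. The gene table lists 14 genes with a CML number as symbol or synonym, so the measured genes are a part of the family. That number is a match of names and need not be the size of the family. The family itself was chosen with earlier results of these data known. Shares of members set beside those of all probe sets are therefore descriptions and no test of the family.

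Total RNA was hybridised to 9 Affymetrix ATH1 arrays, a design of short oligonucleotide probes, in 3 groups of 3 biological replicates. High light cells were exposed for 30 min to 1800 microE/m2/s, dark cells were kept unlit for 1 h, and control cells stayed at 50 microE/m2/s. All cultures had been grown at 24 °C in continuous light of 50 microE/m2/s. The 2 treatments therefore differ in duration as well as in light. The labels name neither an ecotype nor a cell line. They do not say whether replicates were separate cultures, so the p-values cover only the spread among these arrays.

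Calmodulin-like proteins are relatives of calmodulin that bind calcium through EF-hand motifs and have no catalytic domain of their own. A rise of calcium in the cytosol changes their shape, and they pass the signal on by binding target proteins. Plants have many more of them than animals do, and the transcripts of several rise within minutes of touch, wounding, cold or pathogen signals. Among the members, CML37 is known as a positive and CML42 as a negative regulator of jasmonate defence against insects, and CML42 also affects trichome branching. CML38 is known for its role in low-oxygen stress granules, and CML23 acts with its close relative CML24 in flowering time and nitric oxide levels. CML41 acts on callose at plasmodesmata during immune responses, CML43 in pathogen responses, and CML30 is a protein of mitochondria.

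All values below are log2 signals per probe set, and a difference of 1 is a doubling of signal. The probe level was not compared between genes, since probe sets differ in how they bind. Arrays had medians of 5.55 to 5.68 and lower quartiles of 4.05 to 4.13. Of the 11 markers of green, root, guard, xylem and seed cells looked up, 3 had a named probe set. The green-cell gene RCA, Rubisco activase, averaged 10.83 in high light, 10.77 in dark and 11.0 in control. The root hair gene EXPA7 averaged 4.39, 4.18 and 4.28 in the same order, and the guard cell gene FAMA 4.30, 4.20 and 4.22. A pair of arrays stood apart most within their groups. On dark replicate 3, 134 probe sets lay more than 1 above both other dark arrays and 129 more than 1 below them, against 13 to 21 above and 23 to 31 below on the other dark arrays. On high light replicate 1 these numbers were 116 above and 218 below, against 1 to 4 above and 0 to 8 below on the other high light arrays. Control replicate 3 stood apart less, with 64 above and 52 below, against 19 to 28 above and 1 to 30 below on the other control arrays. Member results are given with and without dark replicate 3 or high light replicate 1 where leaving that array out changed a call, and for some others.

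**Figure D1:**
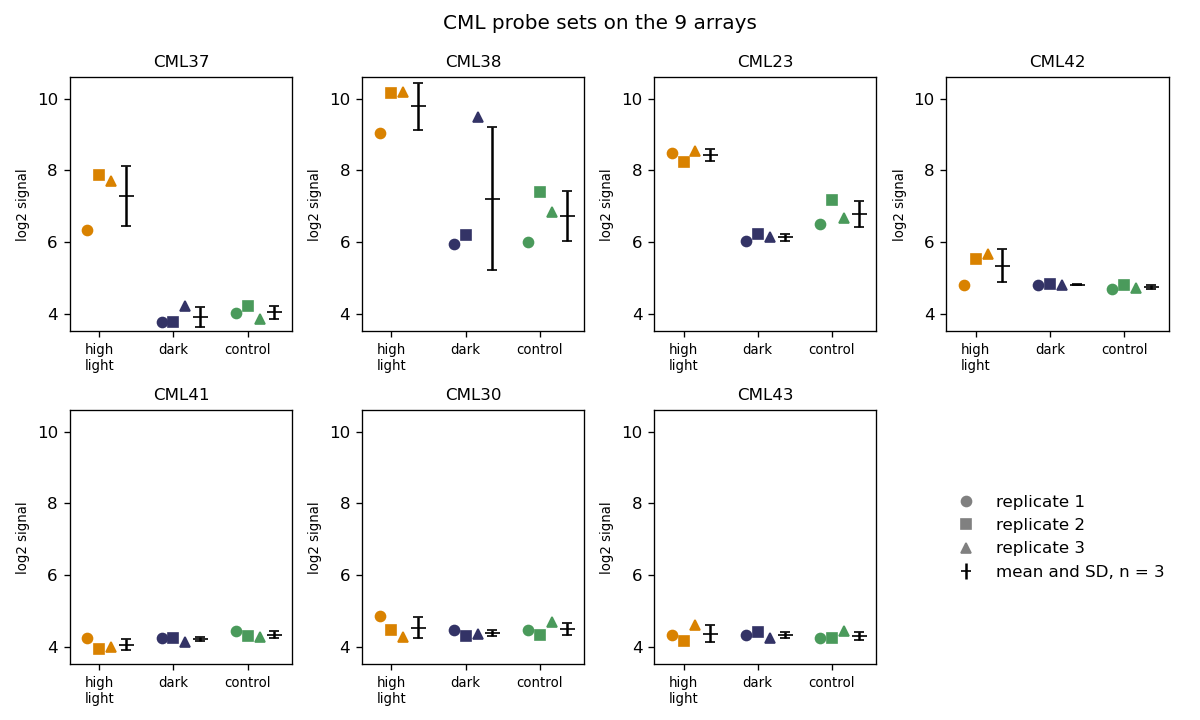
Log2 signal of the 7 CML probe sets (vertical axis) on each high light, dark and control array, with replicates 1, 2 and 3 as circles, squares and triangles and the mean and SD of 3 arrays as a bar. CML37, CML38 and CML23 are highest in high light, dark replicate 3 of CML38 stands at 9.50, and CML41, CML30 and CML43 stay between 3.94 and 4.85.

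The comparison of high light with control asked which calcium sensor transcripts differ after 30 min of strong light. CML37 and CML23 rose, and CML38 lay higher on all 3 high light arrays without passing the test. CML42 lay higher on 2 of 3 high light arrays, and CML41, CML30 and CML43 had log2 changes of -0.28, 0.04 and 0.06. A gene was called where limma's adjusted p, by Benjamini-Hochberg over all probe sets, was under 0.05. By that rule 2 of 7 members were higher (28.6%) and 0 were lower, where 0.44% of all probe sets were called higher and 0.0615% lower. Without adjustment, 4 members were higher and 1 was lower at a p under 0.05, where 3.87% of all probe sets were higher and 4.92% lower. The median log2 change of the 7 members was 0.60, beside -0.03 over all probe sets. Since the family was chosen with results known, these shares and medians are no test of it. In RNA from a whole culture, a change in the share of cells with a transcript and a change in its amount per cell cannot be told apart.

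CML37 had signals of 6.33, 7.86 and 7.69 in high light replicates 1, 2 and 3, against 4.02, 4.21 and 3.85 in control. Every high light array was at least 2.12 above the highest control array, and high light replicate 1 was the lowest of its group by more than 1. The means were 7.29 ± 0.84 in high light and 4.03 ± 0.18 in control (SD, n = 3 each). This is a 9.61-fold rise with a 95% interval of 5.44 to 17.0 (log2 change 3.27, SE 0.36, limma adjusted p = 0.0067). On 2 of 3 control arrays CML37 lay below the lower quartile of all probe sets, where values can be compressed, and the signal was not tested against background. The log2 change was 3.75 without high light replicate 1 (limma adjusted p = 5.86e-05).

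CML23 was at 8.49, 8.23 and 8.55 in high light and at 6.49, 7.18 and 6.66 in control. The groups were at least 1.05 apart, and the high light arrays lay within 0.32 of each other. CML23 averaged 8.42 ± 0.17 in high light and 6.78 ± 0.36 in control (SD, n = 3 each), a 3.13-fold rise with a 95% interval of 2.39 to 4.11 (log2 change 1.65, SE 0.17, limma adjusted p = 0.00524). High light replicate 1 was not set apart for this gene, and without it the log2 change was 1.61. By unadjusted p, CML23 was at rank 32 and CML37 at rank 39 of all probe sets in this comparison. Whether the 2 genes differ in their change was not tested.

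CML38 had 9.03, 10.17 and 10.18 in high light and 5.99, 7.39 and 6.83 in control. The high light arrays were at least 1.64 above the highest control array. Groups that did not overlap in this direction were seen for 3 of 7 members, CML37, CML23 and CML38, and for 4.32% of all probe sets. Its means were 9.79 ± 0.66 in high light and 6.73 ± 0.70 in control (SD, n = 3 each). The log2 change was 3.06 (SE 0.87), an 8.34-fold difference with a 95% interval of 2.09 to 33.2 that did not pass (limma adjusted p = 0.287). The SE comes from all 3 groups, and the dark arrays of CML38 had an SD of 1.99, the 13th largest of all probe sets in that group. Without dark replicate 3 the same log2 change had a limma adjusted p of 0.0239, with only the 6 arrays of both groups it was 0.0685, and without high light replicate 1 the log2 change was 3.44 with an adjusted p of 0.147. Over all alternatives that adjusted p lay between 0.0239 and 0.821.

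CML42 had 4.80, 5.53 and 5.67 in high light, against 4.69, 4.80 and 4.71 in control. High light replicate 1 lay level with the highest control array, and the other high light arrays were above all control arrays. The log2 change was 0.60 (SE 0.19, 95% interval 0.16 to 1.04, limma adjusted p = 0.374). Without high light replicate 2 or 3 it was 0.50 and 0.43, with limma adjusted p of 0.889 and 0.919. Without high light replicate 1 it was 0.86, with a limma adjusted p of 0.00171. That array was thus low within its group for CML37, CML38 and CML42 but not for CML23.

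CML41 was at 4.23, 3.94 and 3.98 in high light and at 4.43, 4.28 and 4.27 in control. The arrays did not overlap, with a gap of 0.04, which was so in the lower direction for 1 of 7 members and 6.85% of all probe sets. Its log2 change of -0.28 (SE 0.10) had a limma adjusted p of 0.41, and 2 of 3 high light arrays lay below the lower quartile. CML30 had 4.85, 4.47 and 4.27 in high light and 4.46, 4.33 and 4.69 in control, with a 95% interval of the log2 change of -0.31 to 0.38. CML43 had 4.32, 4.15 and 4.60 in high light and 4.23, 4.23 and 4.42 in control, with an interval of -0.21 to 0.34. The arrays of the last 2 genes overlapped between the groups. With 3 arrays a group, their changes cannot be placed more narrowly than these intervals.

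**Figure D2:**
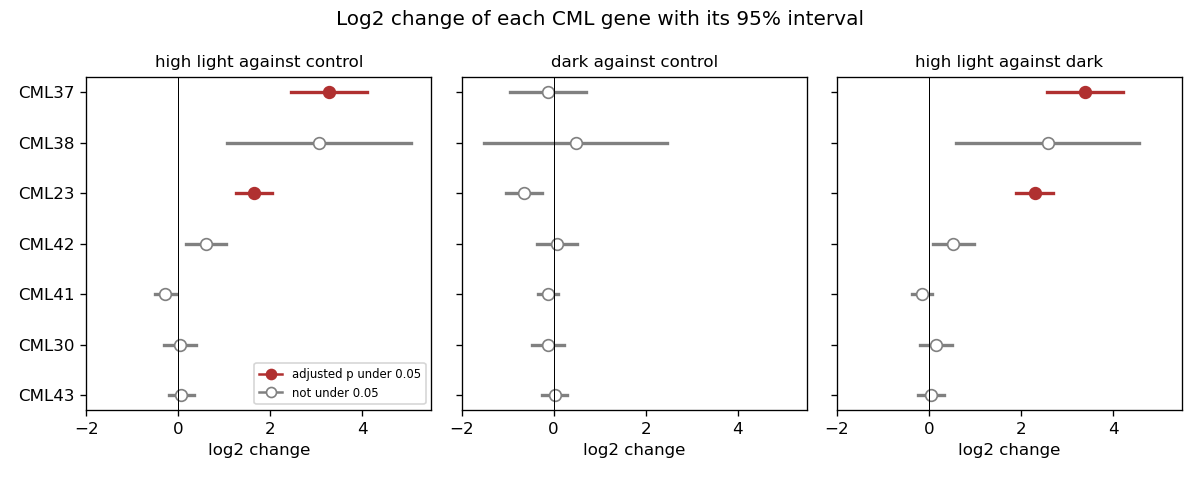
Log2 change (horizontal axis) of each CML gene in the 3 comparisons, with points for the limma estimate and lines for its 95% interval. Filled red points passed an adjusted p under 0.05, which were CML37 and CML23 in both comparisons of high light, and the intervals of CML38 are the widest.

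High light and control arrays with the same replicate number deviated from their group means together, so the difference within each number was also read. For CML38 these differences were 3.04, 2.79 and 3.35 for replicates 1, 2 and 3, a span smaller than that of the high light arrays or of the control arrays alone. For CML37 they were 2.31, 3.65 and 3.84, and for CML23 2.0, 1.05 and 1.89. CML42 had 0.11, 0.73 and 0.95. The span was also smaller than in either group for CML41, but larger than in both for CML23 and CML30. For CML37, CML42 and CML43 it was larger than that of the control arrays. All 3 differences were above 0 for CML37, CML38, CML23 and CML42, and all 3 were below 0 for CML41. The share of all probe sets with 3 differences of the same sign was not counted, so this is not read as a trait of the members. A fit with the replicate block called the same members, CML37 and CML23, and in it 1.02% of all probe sets were called higher. The adjusted p of CML38 in that fit was 0.0861, with an SE of 0.65.

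**Figure D3:**
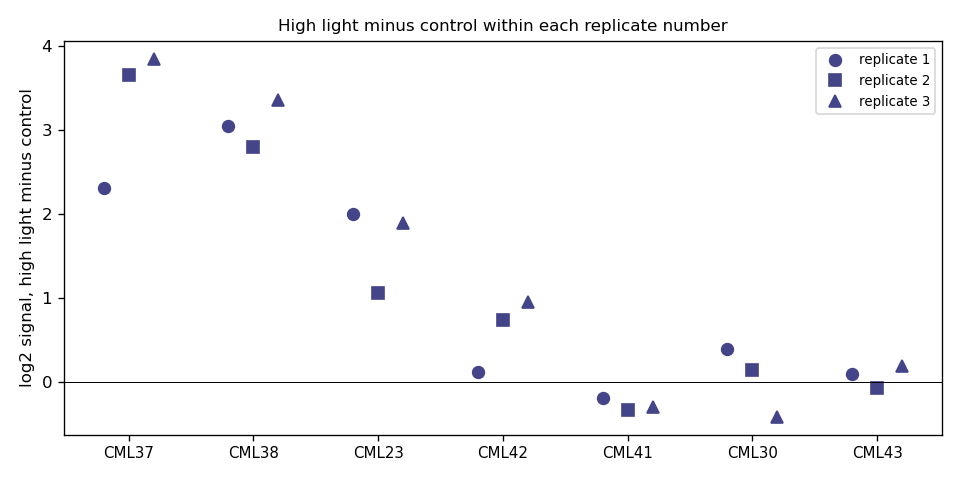
High light minus control log2 signal (vertical axis) of each CML gene within replicates 1, 2 and 3. The 3 differences of CML38 lie between 2.79 and 3.35, those of CML37 between 2.31 and 3.84, and those of CML30 and CML43 fall on both sides of 0.

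The comparison of dark with control asked what 1 h without light does to the same transcripts. Limma called 0 of 7 members, and 0.0% of all probe sets were called in either direction. At an unadjusted p under 0.05, 1 member was lower and 0 were higher, where 1.77% of all probe sets were lower and 0.994% higher. The member was CML23, at 6.03, 6.23 and 6.13 in the dark and at 6.49, 7.18 and 6.66 in control. All dark arrays lay below all control arrays by at least 0.26, and 2 of 7 members, CML23 and CML41, had dark arrays that all lay lower, where 3.45% of all probe sets did. The log2 change of CML23 was -0.65 (SE 0.17, 95% interval -1.04 to -0.26), with an unadjusted p of 0.00482 and an adjusted p of 1 in limma. Over its alternatives that adjusted p lay between 0.444 and 1.

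CML38 had 5.94, 6.20 and 9.50 on dark replicates 1, 2 and 3, against 5.99, 7.39 and 6.83 in control. Dark replicate 1 lay below all control arrays, dark replicate 2 lay above control replicate 1 alone, and dark replicate 3 lay above every control array. It stood 3.31 above the higher of the other dark arrays, the 9th largest such gap of all probe sets. The log2 change was 0.48 with a 95% interval of -1.51 to 2.47, and -0.67 without dark replicate 3. Dark replicate 3 also had the highest mean 3 prime minus 5 prime log2 difference over 3 control transcripts (actin, GAPDH and ubiquitin), a sign of RNA quality, at 2.01, against 1.44 and 1.69 on the other dark arrays and 1.32 to 1.78 in control. Its part in the result was not tested. On that array CML37 was 0.46 above the higher of the other dark arrays, and the other 5 members were below it by 0.04 to 0.18.

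CML37 was at 3.75, 3.75 and 4.21 in the dark and at 4.02, 4.21 and 3.85 in control, with a 95% interval of the log2 change of -0.95 to 0.70. Dark replicates 1 and 2 lay below the lower quartile of all probe sets, where differences can be compressed. CML42 had 4.80, 4.83 and 4.79 in the dark, against 4.69, 4.80 and 4.71 in control. These dark arrays lay within 0.04 of each other, and the log2 change was 0.07 (95% interval -0.37 to 0.51). CML41 had a log2 change of -0.12, CML30 of -0.12 and CML43 of 0.02, each with an interval that includes 0.

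High light was also set against dark, with the same high light arrays as before. CML37 and CML23 rose here too, 2 of 7 members where 0.884% of all probe sets were called higher, and 0 members were lower, where 0.0132% were. CML37 had 6.33, 7.86 and 7.69 in high light and 3.75, 3.75 and 4.21 in dark, a 10.5-fold rise with a 95% interval of 5.93 to 18.6 (log2 change 3.39, SE 0.36, limma adjusted p = 0.00346). CML23 had 8.49, 8.23 and 8.55 in high light and 6.03, 6.23 and 6.13 in dark, a 4.91-fold rise with an interval of 3.74 to 6.45 (log2 change 2.30, SE 0.17, limma adjusted p = 0.000722). For both genes every high light array was at least 2.0 above the highest dark array. CML23 stood at rank 16 of all probe sets by unadjusted p. Without high light replicate 1 the log2 changes were 3.88 for CML37 and 2.26 for CML23 (limma adjusted p = 3.85e-05 and 0.00115). Without dark replicate 3 they were 3.55 and 2.30 (limma adjusted p = 0.0106 and 0.00451).

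CML38 overlapped between these groups, since dark replicate 3 (9.50) was above high light replicate 1 (9.03). Its log2 change was 2.58 (SE 0.87, 95% interval 0.58 to 4.57, limma adjusted p = 0.43). Without dark replicate 3 it was 3.72, with a limma adjusted p of 0.0149, and with array weights 3.37, with an adjusted p of 0.0427. With dark replicate 1 or 2 left out it was 1.94 and 2.07, with limma adjusted p of 0.767 and 0.849. CML42 had a log2 change of 0.53 (SE 0.19, limma adjusted p = 0.495), and 0.79 with an adjusted p of 0.00189 without high light replicate 1. With high light replicate 2 or 3 left out it was 0.43 and 0.36, and did not pass. CML41 had -0.16, CML30 0.16 and CML43 0.04, with adjusted p of 0.77 to 0.953.

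Over all 3 groups, limma's F test called CML23 (adjusted p = 0.00175) and CML37 (adjusted p = 0.00514), 2 of 7 members where 0.633% of all probe sets passed. CML38 had an adjusted F-test p of 0.447 in limma, and 0.0202 without dark replicate 3. CML42 had 0.548, and 0.00271 without high light replicate 1. Neither gene passed the F test under any other alternative in which it was tested. The mean of CML23 was highest in high light, next in control and lowest in dark, and only the steps to high light passed the test. For CML37 the means of dark and control (3.90 and 4.03) differed by less than the SD of the dark arrays, 0.27. CML38 was highest in high light on average, and its dark and control means (7.21 and 6.73) differed by less than the dark SD. For CML42, CML41, CML30 and CML43 no neighbours in the order of means differed by an adjusted p under 0.05. On 2 of 7 members, CML37 and CML23, the 3 high light arrays all lay above the other 6 arrays, as on 2.44% of all probe sets.

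Within groups the members differed in how far replicates lay apart. The SD of CML38 was 0.66 in high light, 1.99 in dark and 0.70 in control, each larger than in at least 98.5% of all probe sets. The median SD of all probe sets was 0.13, 0.12 and 0.13. CML37 had a wide spread in high light, with an SD of 0.84, but 0.18 in control. CML23 was spread widest in control, at 0.36, and CML42 had SDs of 0.46 in high light, 0.02 in dark and 0.06 in control.

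CML38 lies beside AT1G76640 in the TAIR10.1 gene table, and the table gives CML39 as a synonym of that neighbour. The same synonym is also listed for CML37. AT1G76640, a calmodulin-like gene known for early seedling growth, was at 3.94, 3.89 and 3.89 in high light, 3.86, 3.90 and 3.90 in dark and 3.89, 3.88 and 3.89 in control. Its log2 change in high light against control was 0.02 (SE 0.06, limma adjusted p = 0.965), and all 9 arrays lay between 3.86 and 3.94. Every one of these values lies below the lower quartile of its array (4.05 to 4.13), where differences can be compressed. The neighbours CML38 and AT1G76640 thus gave unlike values on the same arrays, and dark replicate 3 was not high for AT1G76640. At this low signal, a response of AT1G76640 could have been missed. CML23 lies beside CAM4, a calmodulin gene, which had no named probe set.

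Other genes of calcium signalling were read from a list by symbol, covering calmodulins, other CML genes, calcineurin B-like sensors and their kinases, calcium-dependent kinases, channels, pumps and calmodulin-binding transcription factors. Of 151 such genes in the gene table, 9 had a probe set with 1 named gene, so most of the pathway is not described here. They were AT1G76640 and 8 glutamate receptor-like channel genes, which encode cation channels of the plasma membrane and inner membranes. Limma called 0 of the 9 in each comparison. AT1G76640, GLR2.8 and GLR2.9 lay below the lower quartile on every array, where changes can be compressed. GLR3.5 and GLR2.7 lay near it on most arrays. At an unadjusted p under 0.05, 0 of 9 were past it in high light against control, where 3.87% of all probe sets were higher and 4.92% lower, and 0 in dark against control, where 0.994% were higher and 1.77% lower. By the same rule 1 was lower in high light against dark, where 3.52% of all probe sets were. The log2 changes lay between -0.25 and 0.06 in high light against control (median 0.01), beside the median of -0.03 over all probe sets. The 1 lower gene was GLR3.3, a channel of wound signalling, at 4.80, 4.68 and 4.45 in high light and 4.73, 5.23 and 4.93 in dark (log2 change -0.32, SE 0.14, limma adjusted p = 0.614). GLR3.5 had log2 changes of -0.19 in high light and -0.14 in dark against control.

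The probe sets most like 3 of the members were found among the 13512 others with 1 gene, as those with the smallest root-mean-square difference of log2 signals after each probe set's own mean was taken off, over the 9 arrays. Nearest to CML37 were AT1G76600 (difference 0.306), AT5G52020 (0.321), an AP2/ERF-type transcription factor gene, and AT5G48540 (0.341), which encodes a cysteine-rich repeat protein of the secretory route. Like CML37, all of them were lowest of the high light arrays on replicate 1. Likeness over the same arrays chose these probe sets, so array patterns shared with a member are no separate result. AT1G76600 had 9.89, 10.82 and 10.76 in high light, 7.04, 7.00 and 7.93 in dark and 7.02, 7.90 and 7.63 in control. Nearest to CML23 were AT5G65300 (0.211), AT3G46070 (0.271), a C2H2 zinc finger gene, and AT5G52750 (0.302). AT5G65300 had 8.13, 8.46 and 8.53 in high light, 6.24, 6.30 and 6.17 in dark and 6.41, 6.83 and 6.38 in control, so that its highest control array was replicate 2, as for CML23.

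Nearest to CML38 were AT4G24110 (0.612), AT3G29970 (0.664) and AT3G23170 (0.675), which are farther off than the neighbours of CML37 and CML23. AT4G24110 had 7.60, 7.08 and 7.17 in high light, 4.61, 4.09 and 7.48 in dark and 4.47, 4.90 and 4.96 in control. AT3G29970 had 6.91, 9.03 and 9.48 in high light, 4.47, 4.40 and 9.0 in dark and 4.14, 5.01 and 4.36 in control. On dark replicate 3 both stood with the high light arrays, as CML38 did, and AT3G23170, at 6.32, 6.04 and 8.10 in dark, lay between. The choice by likeness favours such shared patterns, so they are no separate result. These likenesses rest on few arrays, so a single array can decide them. Between members, CML37 and CML38 differed by 0.937, CML37 and CML23 by 0.824 and CML38 and CML23 by 1.18. The smallest difference among the 21 pairs of members was 0.203, between CML30 and CML41, whose signals hardly varied.

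**Figure D4:**
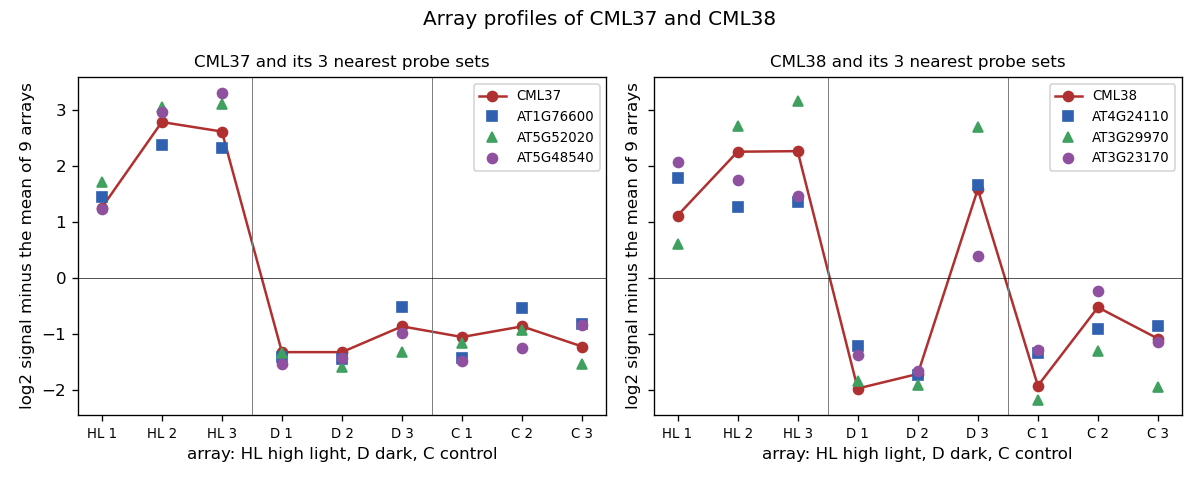
Log2 signal minus the mean of the 9 arrays (vertical axis) for CML37 (left) and CML38 (right), drawn as a line, each with its 3 nearest probe sets as separate points, over high light (HL), dark (D) and control (C) arrays 1 to 3. CML37 and its neighbours are high on the HL arrays alone, while CML38, AT4G24110 and AT3G29970 are also high on dark replicate 3.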

How the data were processed

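The values are log2 expression per probe set as deposited by the authors, made with RMA in affy, per the submitters' processing notes (version and settings not given). RMA corrects background, normalises quantiles between arrays and summarises probes, so a change in most transcripts would be hidden. Base 2 is assumed from the range of the values, since no source used here states it. Of 22810 probe sets, 64 Affymetrix control sets were left out. In the platform annotation 13513 of the rest have 1 gene, 503 have several and 8730 have none listed. All 7 members matched the gene table of TAIR10.1, and no sequences were used.

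Limma 3.58.1 in R 4.3.3 fitted a mean per group over all 9 arrays (eBayes, 6 residual and 2.55 prior degrees of freedom), and was tested on simulated data. P-values were adjusted over all 22746 probe sets within each comparison. The number of arrays limits the precision. Members, lists, markers and the naming rule (all members, listed genes called or with the lowest F-test p, and the 3 nearest probe sets) were chosen with earlier results of these data known. Same-numbered high light and control arrays had correlated deviations (0.515, 0.261 and 0.384), while 1 of 3 pairs did not in dark against control (0.0124) or high light against dark (-0.0336). Differences within each replicate number were therefore read in the first comparison alone. The replicate block was fitted over all 9 arrays, so it also matched the dark arrays by number. Alternatives changed the centring, normalisation, low-value filter, variance prior, array weights, block, arrays fitted, shared probes, threshold and each array left out.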

Additional observations from a re-analysis of the deposited data

How the results depend on the processing

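The number of CML genes called by limma was within 1.5 times the reported one under 72 of 75 alternatives. The exception was the filter that kept probe sets with a mean above the median of all means, which left 2 members to test, CML23 and CML38, and 1 call, CML23, in each comparison of high light and in the F test. By the rule of 1.5 times, 3 calls beside 2 count as the same, and so do 0 beside 0 in dark against control. At most 5 of all probe sets were called in that comparison, so its alternatives could hardly differ. CML37 and CML23 kept their calls under every alternative in which they were tested, with adjusted p up to 0.0432 and 0.0392 in high light against control and up to 0.0292 and 0.00864 against dark. Leaving out 1 array at a time gave log2 changes of 2.98 to 3.75 for CML37 and 1.5 to 1.85 for CML23 against control. Across all probe sets the calls in high light against control numbered 302 with the replicate block and 387 with array weights, against 114 as reported, and 575 once high light replicate 1 was left out. Leaving out high light replicate 2 gave 43 and replicate 3 gave 58, and leaving out control replicate 1 gave 64 and control replicate 3 gave 61. The replicate block changed no call of a member, and gave CML37 an adjusted p of 0.00325 and CML23 of 0.00497. In high light against control, 3 members were called without dark replicate 3, beside 131 of all probe sets, and 3 without high light replicate 1, beside the 575. In high light against dark it was again 3 under both settings, beside 164 and 675 of all probe sets and 204 as reported. In dark against control 0 members were called under both. No change of sign concerned a called value. CML38 in dark against control was -0.30 with array weights and between -0.67 and 1.12 with 1 array left out. CML43 in high light against dark was -0.032 with array weights. With 1 array left out it lay between -0.083 and 0.14 there, between -0.019 and 0.088 in dark against control, and between -0.058 and 0.17 in high light against control. CML30 with 1 array left out lay between -0.12 and 0.17 in high light against control and between -0.0018 and 0.29 against dark. The cause was not tested. Low signals near the floor of the scale limit what CML41, CML30, CML43 and the control and dark values of CML37 can show. The same holds for AT1G76640, GLR2.8 and GLR2.9.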

Other observations

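The array pattern of CML38, high on the 3 high light arrays and on dark replicate 3, was set beside genes of the low-oxygen response, a list of 18 loci written after the values of CML38 and its nearest probe sets had been seen. For that reason it was not tested. Of the 18, 3 had a named probe set. AT3G10040 (HRA1), a trihelix repressor of that response, was at 8.49, 6.98 and 7.26 in high light, 5.23, 4.05 and 9.21 in dark and 4.26, 4.28 and 4.19 in control. All high light arrays and dark replicates 1 and 3 lay above all control arrays, whereas dark replicate 1 of CML38 lay below them. Dark replicate 3 of AT3G10040 was 3.98 above the higher of the other dark arrays, the 6th largest gap of all probe sets. PDC2, a pyruvate decarboxylase gene of fermentation, was at 9.27, 10.13 and 10.03 in high light, 9.23, 8.56 and 10.28 in dark and 9.36, 9.10 and 8.64 in control. AT4G17260 (LDH1), a lactate dehydrogenase gene, was at 9.14, 9.73 and 9.50 in high light, 8.90, 8.52 and 9.39 in dark and 8.89, 8.80 and 8.60 in control. Dark replicate 3 was the highest dark array for each of the 3, but by 1.05 for PDC2 and by 0.48 for AT4G17260. These gaps were at ranks 124 and 612 of all probe sets. Over all probe sets, 0.589% had a gap above 1, and the share highest on that dark array was not counted. In limma the log2 changes in high light against control were 3.33 (SE 1.11, adjusted p = 0.394) for AT3G10040, 0.78 (SE 0.42, adjusted p = 0.687) for PDC2 and 0.69 (SE 0.22, adjusted p = 0.374) for AT4G17260. No label gives the oxygen level of the vessels, and ADH1, PDC1 and the other 13 loci were not analysed here.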
